A study of Mus musculus with 13 samples.

Results

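Radial glia are the stem cells of the developing forebrain. They line the ventricle, divide to give neurons first and glia later, and leave behind ependymal cells, astrocytes and the few neural stem cells that persist after birth. They are recognised by transcription factors such as Pax6 and Sox2, by the intermediate filament Nestin, by the fatty acid binding protein Fabp7 and by proteins at their surface and in the matrix around them. Intermediate progenitors, their neurogenic daughters, switch on Eomes (Tbr2). The 9 genes described here are Pax6, Sox2, Nes, Fabp7, Hopx, Prom1, Tnc, Ptprz1 and Eomes. The genes were taken by name, as known genes of these cells, with earlier results of these data known. All 9 were found among the 48795 genes of the count table.

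RNA was sequenced from the right brain hemisphere of 13 mice at postnatal day 11, all on a C57BL/6J background. The 5 nlsYAP5SA mice had the genotype NexCre +/- YAP5SAnls +/-: Cre from the NEX/NeuroD6 locus, active in precursors of pyramidal neurons, removes a STOP from a transgene for nuclear YAP1 that the LATS kinases cannot phosphorylate. The 5 control mice were littermates with NexCre -/- YAP5SAnls +/-, so they carried the same transgene without Cre. The 3 C57BL/6 mice were age-matched wild types (WT) from other litters. The labels do not give the sex of the mice. Littermates came from a pair of matings that the labels do not assign, and Cre acts in 1 lineage only, so each sample mixes recombined and other cells. In such bulk samples, fewer cells of a type and less RNA per cell cannot be told apart.

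Each mouse gave between 20871566 and 25524349 estimated counts. Levels are given as CPM, counts scaled to a common library size with TMM factors, and groups were compared with edgeR's quasi-likelihood test. A gene was called when its Benjamini-Hochberg adjusted p over all genes tested was 0.05 or less. Yap1, the mouse gene for YAP1, ranged from 19.96 to 22.3 CPM in controls and from 22.6 to 26.6 CPM in nlsYAP5SA mice. The groups did not overlap (log2 fold change 0.23 ± 0.06 SE, adjusted p = 0.0361, edgeR). Whether reads of the transgene were counted under Yap1 was not tested. Markers of neurons were abundant, at 2952 to 4137 CPM when the 4 markers were summed. Cerebellar markers were near 0, with the 7 markers summing to at most 3.89 CPM and Atoh1 at 0 in every mouse. The methods state that the olfactory bulb was split off. Transcripts of Tbx21, Cdhr1 and Doc2g, known as markers of its mitral and tufted cells, summed to 16.4 to 40.6 CPM, of which Cdhr1 made up 13.5 to 36.3 CPM and Tbx21 at most 0.78 CPM, and their source was not tested. Transcripts of the Y-linked genes Ddx3y, Eif2s3y, Kdm5d and Uty were present in 5 of 5 controls. They were also present in 2 of 5 nlsYAP5SA mice (replicates 3 and 4) and 2 of 3 C57BL/6 mice (replicates 1 and 3). Y-linked status and genotype were thus partly confounded between nlsYAP5SA and control mice.

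Promoter sequences are shown for the 3 genes that differed between nlsYAP5SA and control mice, and for Tnc, whose window holds a Notch-type motif. They are RefSeq windows (GRCm38.p6) of 250 bases before and 50 bases after an annotated transcription start, written 5′ to 3′ on the gene's strand. The tables held 13 windows for 9 of 9 genes. Capitals mark a match to the TEAD letters GGAATG, the core of the sites that YAP1 reaches through TEAD factors, or to the RBPJ letters GTGGGAA of the Notch pathway, each searched on both strands. The windows are Pax6 at chr2:105668646-105668945 (plus strand), Hopx at chr5:77115074-77115373 (minus strand), Prom1 at chr5:44101687-44101986 (minus strand) and Tnc at chr4:64046966-64047265 (minus strand).
Pax6: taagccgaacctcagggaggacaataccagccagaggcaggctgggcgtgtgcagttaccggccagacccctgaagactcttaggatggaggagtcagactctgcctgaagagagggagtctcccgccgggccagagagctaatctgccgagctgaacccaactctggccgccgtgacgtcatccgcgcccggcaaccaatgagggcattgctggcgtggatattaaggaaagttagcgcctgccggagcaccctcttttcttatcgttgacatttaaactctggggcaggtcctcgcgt
Hopx: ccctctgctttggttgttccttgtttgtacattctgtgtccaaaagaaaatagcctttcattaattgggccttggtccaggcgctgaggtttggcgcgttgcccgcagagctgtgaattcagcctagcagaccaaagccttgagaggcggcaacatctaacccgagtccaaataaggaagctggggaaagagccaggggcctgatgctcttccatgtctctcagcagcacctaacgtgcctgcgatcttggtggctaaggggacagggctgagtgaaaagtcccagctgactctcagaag
Prom1: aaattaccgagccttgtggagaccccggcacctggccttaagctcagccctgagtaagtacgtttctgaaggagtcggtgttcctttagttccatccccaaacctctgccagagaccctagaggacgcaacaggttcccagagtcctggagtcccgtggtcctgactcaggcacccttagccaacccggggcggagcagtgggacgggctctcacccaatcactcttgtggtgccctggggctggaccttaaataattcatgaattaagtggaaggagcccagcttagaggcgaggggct
Tnc: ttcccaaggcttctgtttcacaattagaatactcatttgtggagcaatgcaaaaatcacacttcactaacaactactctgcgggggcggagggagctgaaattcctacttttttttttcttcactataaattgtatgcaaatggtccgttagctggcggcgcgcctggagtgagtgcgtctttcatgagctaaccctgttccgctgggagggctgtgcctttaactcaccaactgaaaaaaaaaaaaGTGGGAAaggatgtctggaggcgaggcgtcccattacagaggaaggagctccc

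The TEAD letters were in 0 of the 13 windows, against 14.7% of all 32851 windows of this length in the tables. The RBPJ letters were in 2 windows, against 6.38% of all windows. Both are windows of Tnc that overlap, and both hold the same site. In the Tnc window shown the letters begin 3 bases before the start. The start of the second Tnc window lies further down the gene, and the site begins 82 bases before it. A window without these letters says nothing about binding elsewhere.

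In the controls the 9 genes covered a wide range of levels. Per kilobase of exon, Fabp7 stood highest at 193 ± 39.7 CPM per kb (SD, n = 5), followed by Ptprz1 at 42.9 ± 6.49, Sox2 at 20.5 ± 0.79 and Hopx at 12.6 ± 0.78 CPM per kb. Tnc (4.66 ± 0.43 CPM per kb) and Nes (4.14 ± 0.38 CPM per kb) differed by less than the sum of their SDs, and Prom1 came next at 1.91 ± 0.30 CPM per kb. Pax6 (0.75 ± 0.09 CPM per kb) and Eomes (0.55 ± 0.29 CPM per kb) were lowest and were not separated by their spread. Eomes rested on only 23 to 90 counts a mouse, whereas every other member had at least 177.

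**Figure D1:**
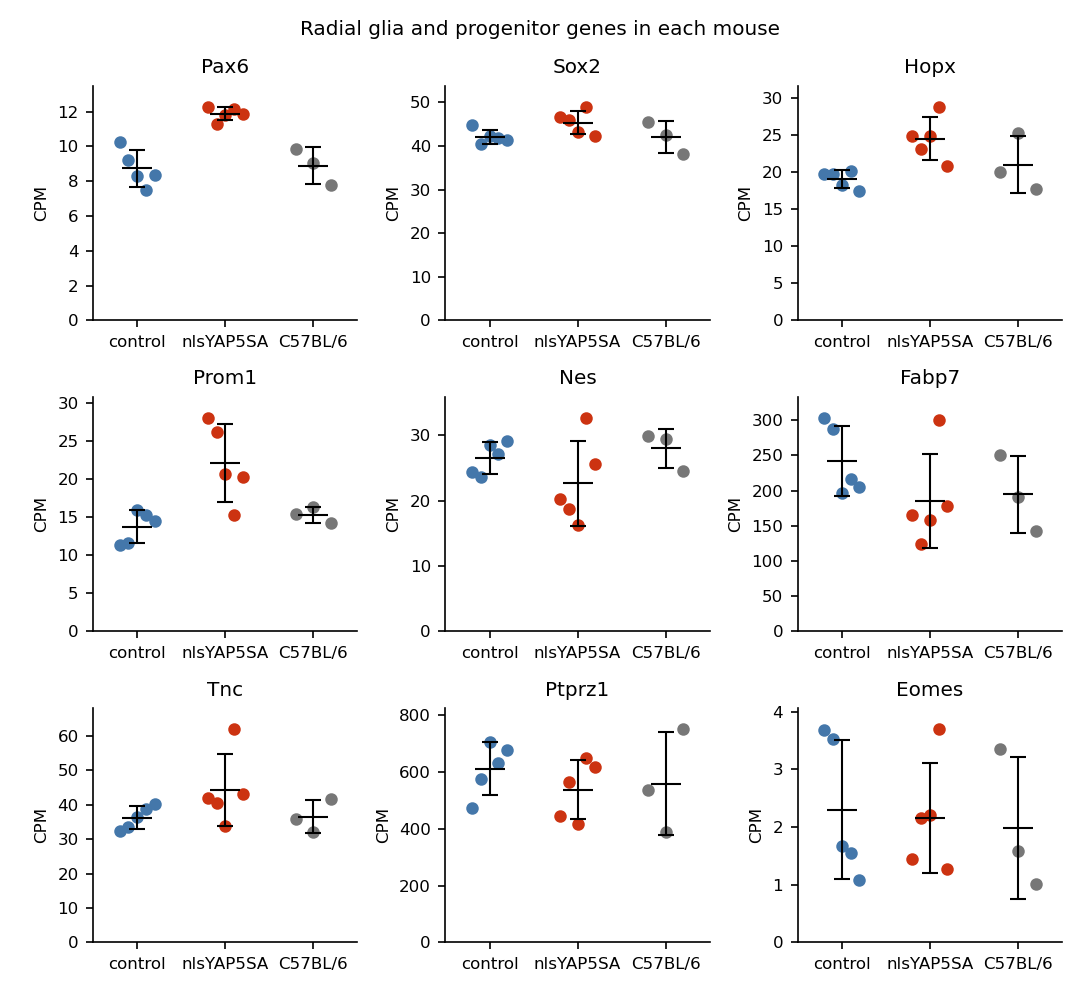
Levels of the 9 genes in each mouse, in CPM on linear axes that start at 0. Each point is 1 mouse, in replicate order within its group, and black bars give the mean and SD of the 5 control, 5 nlsYAP5SA and 3 C57BL/6 mice. The nlsYAP5SA points lie above all control points for Pax6 and Hopx, and the fourth nlsYAP5SA mouse is the highest of its group for Nes, Fabp7, Tnc and Eomes.

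Between nlsYAP5SA and control mice, 3 of the 9 genes were called higher, Pax6, Hopx and Prom1, and 0 were called lower. Of all 16315 genes tested, 10.8% were called, 7.36% higher and 3.44% lower. The 9 genes were chosen with earlier results of these data known, so the shares are not an independent test of them. The 9 log2 fold changes had a median of 0.10, beside -0.01 over all genes, and 5 of the 9 were above 0. Groups that did not overlap were found for 2 of the 9 genes, both higher in nlsYAP5SA mice, against 6.5% of all genes with no overlap and a higher level and 3.57% with no overlap and a lower level. An unadjusted p under 0.05 was reached by 4 of the 9 genes, the called ones and Tnc, and by 3984 of the 16315 genes tested.

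Pax6, a paired box transcription factor that keeps radial glia neurogenic and is also made by some interneurons and astrocytes, lies at chr2:105668900-105697364 (plus strand, GRCm38). The controls measured 10.3, 9.24, 8.30, 7.52 and 8.36 CPM, the nlsYAP5SA mice 12.2, 11.3, 11.8, 12.2 and 11.9 CPM, and the C57BL/6 mice 9.86, 9.06 and 7.79 CPM. Every nlsYAP5SA mouse was above every control and C57BL/6 mouse, and the nlsYAP5SA mice lay closer together than the controls (SD 0.38 against 1.05 CPM). The log2 fold change against control was 0.44 ± 0.09 (SE), with an adjusted p of 0.00706 by edgeR's quasi-likelihood test. The value stayed between 0.39 and 0.55 over 22 alternative settings and was called in 20. With the summed Y-linked level as a covariate it was 0.45 (adjusted p = 0.0717), and in the mice with Y-linked transcripts alone 0.45 (adjusted p = 0.166).

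Sox2, the SRY-box factor that neural stem cells share with many astrocytes and that works beside Pax6, lies at chr3:34650405-34652461 (plus strand). It measured 44.8, 40.4, 42.2, 41.9 and 41.4 CPM in controls, 46.6, 45.9, 43.3, 48.9 and 42.2 CPM in nlsYAP5SA mice and 45.4, 42.6 and 38.1 CPM in C57BL/6 mice. The groups overlapped, and the log2 fold change of 0.10 ± 0.05 (SE) was not called (adjusted p = 0.261, edgeR). Sox2 was called in 0 of the 22 alternatives.

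Hopx, a small homeodomain protein that does not itself bind DNA, marks outer radial glia in primates and quiescent stem cells of the dentate gyrus, and it lies at chr5:77086988-77115121 (minus strand). Its levels were 19.7, 19.7, 18.2, 20.1 and 17.4 CPM in controls, 24.8, 23.1, 24.8, 28.7 and 20.8 CPM in nlsYAP5SA mice and 20.04, 25.2 and 17.7 CPM in C57BL/6 mice. The lowest nlsYAP5SA mouse stood just above the highest control, while the second C57BL/6 mouse fell within the nlsYAP5SA range. No other C57BL/6 mouse lacked Y-linked transcripts. The log2 fold change against control was 0.36 ± 0.08 (SE, adjusted p = 0.0161, edgeR), and Hopx was called in all 22 alternatives, with adjusted p-values up to 0.0434. In the mice with Y-linked transcripts alone it was the only called member.

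Prom1 (CD133), a membrane protein of apical protrusions and cilia that is shared by radial glia, neural stem cells and ependymal cells, lies at chr5:43993620-44102032 (minus strand). The controls measured 11.3, 11.6, 15.9, 15.3 and 14.5 CPM, the nlsYAP5SA mice 27.9, 26.2, 20.7, 15.3 and 20.3 CPM, and the C57BL/6 mice 15.4, 16.2 and 14.2 CPM. The nlsYAP5SA mice other than replicate 4 stood above all control and C57BL/6 mice, and replicate 4 lay within the control range. The log2 fold change of 0.68 ± 0.15 (SE) was the largest of the 9 genes against control (adjusted p = 0.0128, edgeR).

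Other measures of the same mice are given beside the Prom1 levels. The 3 nlsYAP5SA mice without Y-linked transcripts had 27.9, 26.2 and 20.3 CPM, and those with them 20.7 and 15.3 CPM. With the Y-linked level as a covariate the log2 fold change was 0.42 (adjusted p = 0.305), and in the mice with Y-linked transcripts alone 0.39 (adjusted p = 0.452). Ttr, a defining transcript of choroid plexus, was at 258, 276, 138, 0.78 and 55.2 CPM in the nlsYAP5SA mice, and the mouse with the lowest Prom1 of this group had its lowest Ttr. Ttr was at 217, 0.82, 1.25, 2.14 and 129 CPM in controls and 1.52, 158 and 239 CPM in C57BL/6 mice, where the mice with the highest Ttr, control replicate 1 and C57BL/6 replicate 3, had the lowest Prom1 of their groups. The 6 choroid plexus markers summed to 10.1 to 305 CPM in nlsYAP5SA mice, 8.65 to 233 CPM in controls and 8.16 to 263 CPM in C57BL/6 mice, and 1 of the 6, Folr1, was called higher in nlsYAP5SA mice. With Ttr as a covariate Prom1 was at 0.58 (adjusted p = 0.0554, edgeR). The part of choroid plexus in the Prom1 result was not tested. Of 7 markers of ciliated ependymal cells, another source of Prom1, 2 were called higher, Foxj1 (0.78, adjusted p = 0.00773) and Ak7 (0.85, adjusted p = 0.0271). The 7 markers summed to 26.7 to 30.6 CPM in nlsYAP5SA mice, 12.3 to 27.9 CPM in controls and 18.5 to 20.03 CPM in C57BL/6 mice. In nlsYAP5SA replicate 4, the mouse with the lowest Prom1, Foxj1 was at 13.2 CPM, within the 12.7 to 14.4 CPM of the other nlsYAP5SA mice. The part of ependymal cells in the Prom1 result was not tested.

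Nes encodes Nestin, an intermediate filament protein of neural stem cells that also appears in vessel walls and reactive astrocytes, and it lies at chr3:87971078-87980451 (plus strand). It measured 24.3, 23.6, 28.5, 27.2 and 29.1 CPM in controls, 20.2, 18.7, 16.3, 32.6 and 25.6 CPM in nlsYAP5SA mice and 29.9, 29.4 and 24.6 CPM in C57BL/6 mice. In 3 nlsYAP5SA mice the level lay below every control, and replicate 4 lay above every other mouse. The log2 fold change of -0.23 ± 0.16 (SE) was not called (adjusted p = 0.405, edgeR). Without replicate 4 it was -0.40 (adjusted p = 0.0537). Without the 3 mice highest in olfactory bulb markers (control replicates 1 and 2 and nlsYAP5SA replicate 4) Nes was called, at -0.48 (adjusted p = 0.0374). Those mice held the highest nlsYAP5SA level and the lowest control levels of Nes. Replicate 4 is also 1 of only 2 nlsYAP5SA mice with Y-linked transcripts. With all mice kept and the summed bulb markers as a covariate, Nes was not called, at -0.25 (adjusted p = 0.326, edgeR). Other settings brought it closer to 0: it was -0.12 with the Y-linked covariate (adjusted p = 0.888), -0.13 in the mice with Y-linked transcripts alone (adjusted p = 0.932), -0.15 with Ttr as a covariate (not called) and -0.13 without nlsYAP5SA replicate 3 (adjusted p = 0.619). Of 4 markers of endothelial cells, which can also hold Nestin, 2 were called lower, Cldn5 (-0.44, adjusted p = 0.000499) and Cdh5 (-0.45, adjusted p = 0.0296), and the 4 summed to 106 to 134 CPM in nlsYAP5SA mice, 138 to 158 CPM in controls and 138 to 159 CPM in C57BL/6 mice. The part of endothelial cells in the Nes level was not tested.

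Fabp7 (brain lipid binding protein), a fatty acid carrier of radial glia, early astrocytes and the ensheathing glia of the olfactory nerve, lies at chr10:57784881-57788450 (plus strand). The controls measured 303, 288, 197, 216 and 205 CPM, the nlsYAP5SA mice 165, 124, 159, 299.6 and 178 CPM, and the C57BL/6 mice 251, 191 and 142 CPM. The nlsYAP5SA mice other than replicate 4 lay below all 5 controls, and replicate 4 reached the level of the highest controls. C57BL/6 replicates 2 and 3 lay below all 5 controls as well. Over all mice the log2 fold change against control was -0.39 ± 0.21 (SE) and was not called (adjusted p = 0.276, edgeR). Against C57BL/6 mice it was -0.09 ± 0.26 (SE, adjusted p = 0.886, edgeR). In C57BL/6 against control mice it was -0.31 ± 0.20 (SE), not called. Without nlsYAP5SA replicate 4 the difference from control was called, at -0.63 (adjusted p = 0.0186). Replicate 4 is 1 of only 2 nlsYAP5SA mice with Y-linked transcripts, which all 5 controls had. With the Y-linked level as a covariate the log2 fold change against control was -0.12 (adjusted p = 0.911, edgeR).

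The highest Fabp7 and Eomes levels fell in the same mice as the highest olfactory bulb markers. The summed markers Tbx21, Cdhr1 and Doc2g, of mitral and tufted cells, were highest in nlsYAP5SA replicate 4 (40.6 CPM), control replicates 1 and 2 (38.2 and 34.2 CPM) and C57BL/6 replicate 1 (27.6 CPM), and the other mice had 16.4 to 26.8 CPM. The same 4 mice had the 4 highest levels of Fabp7, 251 to 303 CPM against at most 216 CPM elsewhere. With the summed markers as a covariate the Fabp7 log2 fold change was -0.50 (adjusted p = 0.00726, edgeR), and without the 3 highest mice of the 2 groups compared it was -0.40 (adjusted p = 0.0343). In the mice with Y-linked transcripts alone it was -0.08 (adjusted p = 0.96). These 3 settings were chosen after the marker and Y-linked levels were seen to differ between mice.

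Eomes, the T-box factor of intermediate progenitors, is also made by mitral and tufted cells of the olfactory bulb, and it lies at chr9:118478212-118486132 (plus strand). It measured 3.68, 3.52, 1.67, 1.55 and 1.09 CPM in controls, 1.45, 2.17, 2.21, 3.70 and 1.26 CPM in nlsYAP5SA mice and 3.36, 1.58 and 1.01 CPM in C57BL/6 mice. Each group held 1 or 2 mice above 3 CPM, and these were the 4 mice named for their olfactory bulb markers. The log2 fold change of -0.10 ± 0.37 (SE) was not called (adjusted p = 0.9, edgeR), and over the 22 alternatives it ran from -0.39 to 0.34. Without the 3 mice highest in bulb markers it was 0.30 (adjusted p = 0.528).

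**Figure D2:**
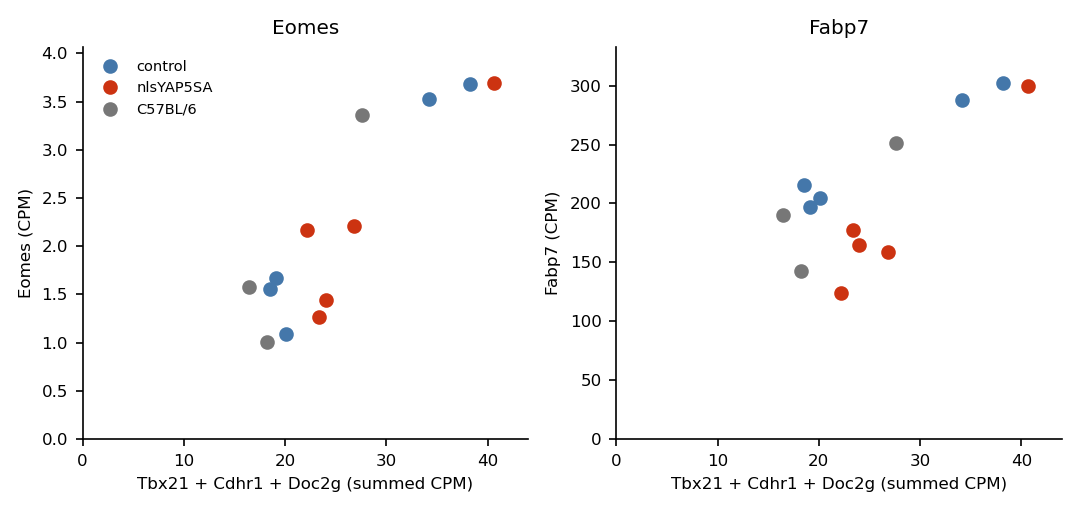
Eomes (left) and Fabp7 (right) in each mouse, in CPM, against the summed CPM of 3 olfactory bulb markers; each point is 1 of the 13 mice, coloured by group. The 4 mice with summed markers of 27.6 CPM or more, drawn from all 3 groups, hold the 4 highest levels of both genes.

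Of 11 other intermediate progenitor genes, 10 passed the filter on low counts and 0 were called by edgeR or by DESeq2, with 1 at an unadjusted p under 0.05 and a median log2 fold change of 0.05. Neurod1, a proneural factor of differentiating neurons, averaged 17.3 ± 0.90 CPM in nlsYAP5SA mice and 16.2 ± 0.98 CPM in controls (SD, n = 5 each), and Insm1, a zinc finger factor of the same stage, 5.13 ± 0.40 and 5.01 ± 0.49 CPM. Neurog1 did not pass the filter and was at 0 in 11 of the 13 mice. Of 11 neuroblast genes, which include Dcx, 0 were called by either tool and 0 had an unadjusted p under 0.05.

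Tenascin-C, encoded by Tnc at chr4:63959785-64047015 (minus strand), is a matrix glycoprotein of the stem cell niche that reactive astrocytes also make. It measured 32.4, 33.5, 36.4, 38.7 and 40.2 CPM in controls, 42.0, 40.4, 33.9, 61.9 and 43.1 CPM in nlsYAP5SA mice and 35.9, 32.1 and 41.6 CPM in C57BL/6 mice. Of the nlsYAP5SA mice, 4 lay above all controls, 1 of them only just, and replicate 4 was far above the rest. The log2 fold change of 0.29 ± 0.13 (SE) did not pass the correction (unadjusted p = 0.0491, adjusted p = 0.203, edgeR), and it was called in 0 of 22 alternatives. Without replicate 4 it was 0.13 (adjusted p = 0.367), and without the 3 mice highest in bulb markers 0.0548 (adjusted p = 0.739). With the bulb markers as a covariate it was 0.27 (adjusted p = 0.214, edgeR).

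Ptprz1, at chr6:22875502-23052916 (plus strand), is a receptor tyrosine phosphatase of radial glia and oligodendrocyte precursors that binds tenascins and the growth factor pleiotrophin. The controls measured 471, 576, 705, 629.8 and 676 CPM, the nlsYAP5SA mice 444, 564, 418, 647 and 615 CPM, and the C57BL/6 mice 537, 389 and 749 CPM. The 3 groups overlapped widely, and the log2 fold change of -0.19 ± 0.13 (SE) was not called (adjusted p = 0.429, edgeR). It was -0.12 without nlsYAP5SA replicate 1, -0.11 without replicate 3, -0.10 with Ttr as a covariate and -0.39 (adjusted p = 0.0742) without the 3 mice highest in bulb markers, and it was called in 0 of 22 alternatives. Of its partners and those of Tnc, a list of 10 genes, 1 was called, and it was lower. That gene was Ptn, which encodes pleiotrophin, at 455, 407, 411, 549.7 and 453 CPM in nlsYAP5SA mice and 548 to 594 CPM in controls (-0.33, adjusted p = 0.0148). Replicate 4 alone reached the control range.

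Across the 9 genes, nlsYAP5SA replicate 4 was the highest mouse of its group for 7 and the lowest for 1, Prom1. The same mouse had 33.3 CPM of the proliferation marker Mki67, against 9.71 to 22.9 CPM in the other nlsYAP5SA mice and 12.4 to 21.6 CPM in controls. The 10 cell cycle genes showed no called change between the groups by edgeR or DESeq2, with 0 at an unadjusted p under 0.05. Their summed level was 102 to 188 CPM in nlsYAP5SA mice and 121 to 141 CPM in controls.

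**Figure D3:**
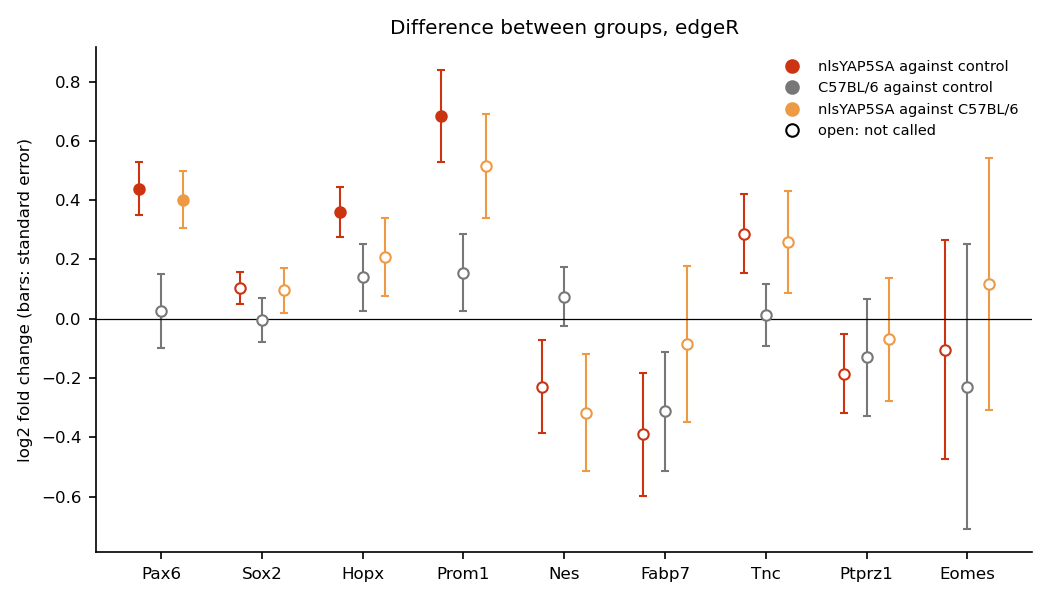
Log2 fold change of the 9 genes in the 3 comparisons, with bars for the standard error of edgeR's fit. Filled points passed the adjusted p threshold and open points did not: against control these are Pax6 (0.44), Hopx (0.36) and Prom1 (0.68), and against C57BL/6 only Pax6 (0.40).

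Of 16 other radial glia genes, 5 were called higher and 1 lower, with a median log2 fold change of 0.20. Thbs4, a thrombospondin of stem cells and injured tissue, rose from 2.004 ± 0.33 to 6.59 ± 2.32 CPM (1.71 ± 0.24 SE, adjusted p = 0.000605), and Vim, which encodes the filament protein vimentin, rose from 52.0 ± 4.45 to 132 ± 16.8 CPM (1.34 ± 0.09 SE, adjusted p = 2.83e-06; SDs over 5 mice each). The glutamate transporter gene Slc1a3 and the transcription factor genes Sox9 and Lhx2 rose by less (0.31, 0.36 and 0.24). Mfge8, which encodes a secreted milk fat globule protein, was the 1 called lower (-0.21, adjusted p = 0.047). Vim, Slc1a3 and Sox9, among others, are also expressed by astrocytes.

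Of 7 further genes known from outer radial glia, 3 were called higher and 0 lower. Pdgfd, a growth factor gene, measured 13.2, 11.8, 9.19, 7.48 and 10.6 CPM in nlsYAP5SA mice and 2.94 to 3.89 CPM in controls, with no overlap (1.58, adjusted p = 3.09e-05). Fam107a, whose product binds actin and which astrocytes also express, measured 270.3, 286, 271, 71.7 and 229 CPM in nlsYAP5SA mice and 61.4 to 97.8 CPM in controls (1.42, adjusted p = 0.00804), so that replicate 4 lay among the controls. Itgb5, an integrin subunit, was called with a smaller difference (0.39).

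**Figure D4:**
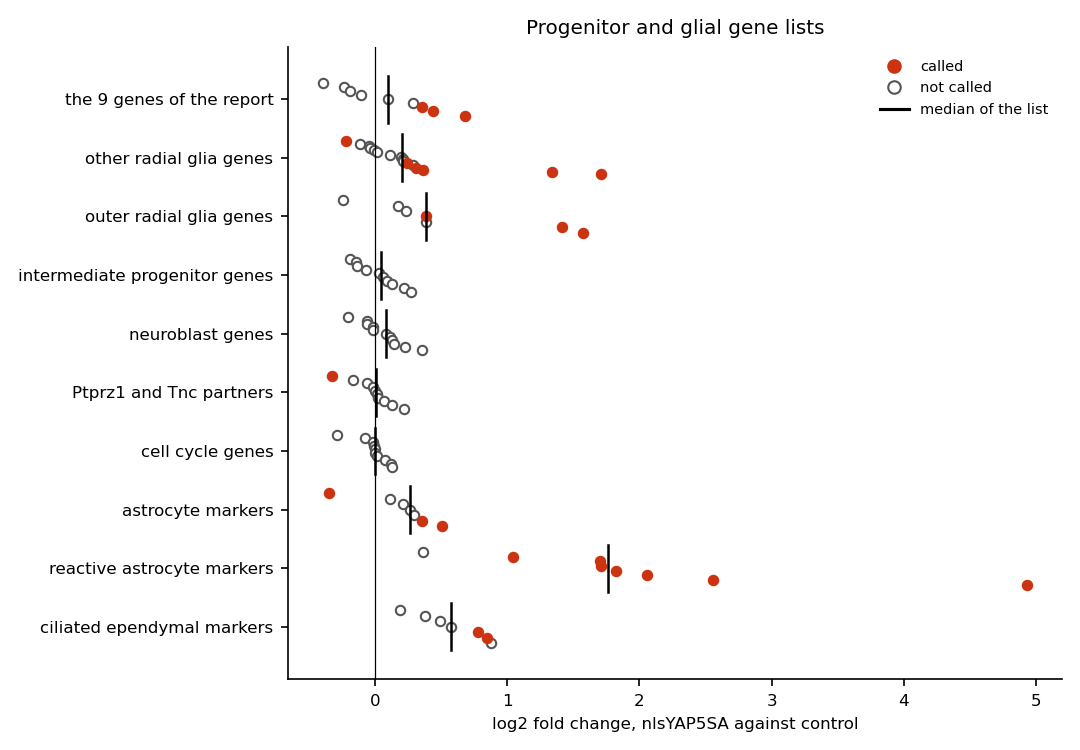
Log2 fold change between nlsYAP5SA and control mice for the 9 genes and 9 other lists, 1 point per gene tested, filled where called, with a vertical bar at the median of each list. The medians of the 9 genes (0.10), the intermediate progenitor genes (0.05) and the neuroblast genes (0.09) lie near 0, and that of the reactive astrocyte markers is 1.77.

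Several genes above are shared with glia, and markers of other cells differed in the same mice. Of 8 reactive astrocyte markers, 7 were called higher and 0 lower, and the 8 summed to 782 to 1014 CPM in nlsYAP5SA mice, 212 to 252 CPM in controls and 198 to 254 CPM in C57BL/6 mice. Gfap was at 648 to 831 CPM in nlsYAP5SA mice and 170.2 to 189 CPM in controls (2.06, adjusted p = 1.34e-08). Serpina3n, a protease inhibitor gene, was at 68.3 to 104 CPM in nlsYAP5SA mice and 7.88 to 32.8 CPM in controls (2.55, adjusted p = 0.000483), and Lcn2, which encodes the secreted protein lipocalin-2, was at 0.57 to 5.71 CPM in nlsYAP5SA mice and at only 0.0409 to 0.21 CPM in controls (adjusted p = 0.000315). Of 7 mature astrocyte markers, 2 were called higher (Aldoc 0.51, Gja1 0.36) and 1 lower (S100b -0.35), and the sums overlapped (3718 to 5711 CPM in nlsYAP5SA mice, 2692 to 5019 CPM in controls and 3699 to 5126 CPM in C57BL/6 mice). Of 6 microglia markers, 5 were called higher, with the largest increases in Aif1 (0.84, adjusted p = 0.00148) and Csf1r (0.76, adjusted p = 0.000248), and the 6 summed to 392 to 513 CPM in nlsYAP5SA mice, 275 to 347 CPM in controls and 293 to 342 CPM in C57BL/6 mice. The part of these cells in the levels of Pax6, Hopx, Prom1 and Tnc was not tested. Of 6 oligodendrocyte precursor markers, cells that also make Ptprz1, 2 were called lower (Gpr17 -0.38, Olig1 -0.29), with sums of 544 to 634 CPM in nlsYAP5SA mice, 594 to 685 CPM in controls and 615 to 644 CPM in C57BL/6 mice, and their part in the Ptprz1 level was not tested either.

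Of the 4 general neuron markers, 0 were called by edgeR or DESeq2 and 0 had an unadjusted p under 0.05, and of 6 markers of cortical and hippocampal excitatory neurons 1 was called. That was Neurod6, the gene whose locus carries the Cre allele, at 38.9 to 56.8 CPM in nlsYAP5SA mice and 91.5 to 110.0 CPM in controls (-0.98, adjusted p = 2.65e-05). Of 4 dentate granule cell markers Dsp was called higher (0.56), and of 6 oligodendrocyte markers 0 were called by edgeR and 1 by DESeq2, with 5 at an unadjusted p under 0.05 and a median log2 fold change of -0.54. Of the cerebellar and olfactory bulb markers 4 and 2 could be tested and 0 were called by either tool, with 1 and 0 at an unadjusted p under 0.05.

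The comparison of C57BL/6 with control mice asks whether the transgene without Cre went with other levels. Of the 9 genes, 0 were called by edgeR or by DESeq2, and 0 reached an unadjusted p under 0.05. Over all 16546 genes tested 28 were called, or 0.169%, with 625 at an unadjusted p under 0.05. The 9 log2 fold changes ran from -0.31 for Fabp7 to 0.16 for Prom1 and had standard errors of 0.07 to 0.48. With 1 mouse left out, Fabp7 ran from -0.54 (without C57BL/6 replicate 1) to -0.15 (without C57BL/6 replicate 3) and Prom1 from 0.0924 (without control replicate 2) to 0.21 (without control replicate 3). Of the 139 genes of the other 19 lists, 132 could be tested, 0 were called by edgeR or by DESeq2 and 1 had an unadjusted p under 0.05.

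Against C57BL/6 mice, 1 of the 9 genes was called higher in nlsYAP5SA mice and 0 lower, against 6.38% of all 16641 genes called. This comparison shares the nlsYAP5SA mice with that against control. Pax6 was the called gene, with a log2 fold change of 0.40 ± 0.10 (SE, adjusted p = 0.0392, edgeR), and its groups did not overlap. It was called in 6 of 19 alternatives and in 0 of the 8 that left out a mouse, where adjusted p-values ran from 0.064 to 0.0912. Prom1 had a larger difference that did not pass (0.52 ± 0.18 SE, adjusted p = 0.125), except without nlsYAP5SA replicate 4, where it did (0.63, adjusted p = 0.0294). Hopx was at 0.21 ± 0.13 (SE, adjusted p = 0.409), where the second C57BL/6 mouse had 25.2 CPM. It was 0.38 without that mouse and 0.10 without the third. The other 6 genes lay between -0.32 for Nes and 0.26 for Tnc, with Fabp7 at -0.09, and Tnc was 0.12 without nlsYAP5SA replicate 4. In the other radial glia list 3 genes were called higher (Vim 1.37, Thbs4 1.23 and Lhx2 0.35), and in the outer radial glia list 2 (Pdgfd 1.46 and Itgb5 0.48).

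The genes whose pattern over the 13 mice was most like that of a called member were found by the root-mean-square difference of centred log2 (CPM + 0.5) over 14856 genes with a mean of at least 1 CPM. For Pax6 these were Myl12a (0.08), Cyb5r3 (0.09) and Cotl1 (0.09), which encode a myosin light chain, a reductase and an actin-binding protein. For Hopx they were Ezh2 (0.10), Ier3 (0.11) and Pxdc1 (0.12), of which Ezh2 encodes a histone methyltransferase. For Prom1 they were Adamts2 (0.13), Slc6a20a (0.14) and Abcc4 (0.15), which encode a procollagen protease, an amino acid transporter and an efflux pump. 

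Exons of 4 members overlap a gene on the opposite strand: Eomes with Gm33460 over 118 bases, Hopx with Hopxos over 412, Prom1 with Gm16401 over 424 and Tnc with 8030451A03Rik over 176. The sources used here name no strand setting for the counts, so reads from these stretches could belong to either gene.

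**Figure D5:**
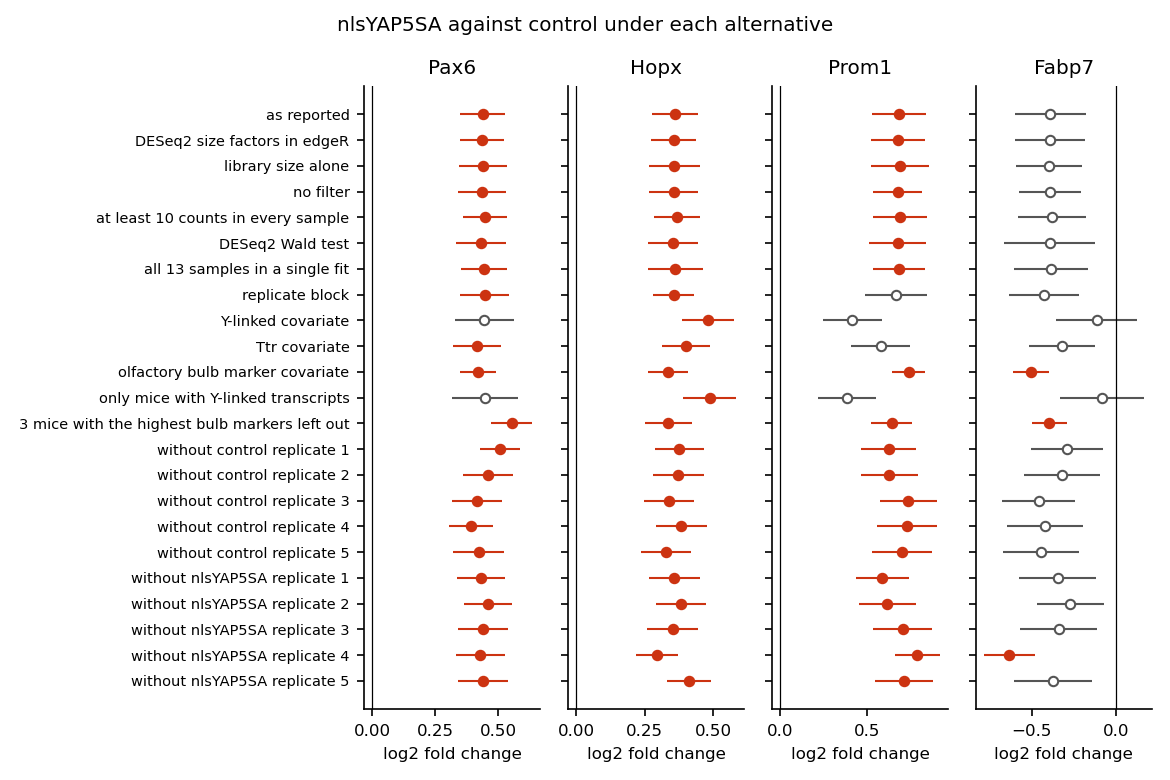
Log2 fold change between nlsYAP5SA and control mice with its standard error, as reported (top) and under 22 alternatives, for Pax6, Hopx, Prom1 and Fabp7; filled points passed an adjusted p of 0.05. Hopx is filled throughout, Pax6 in 20 and Prom1 in 18 of the 22, and Fabp7 in 3, among them the fit without nlsYAP5SA replicate 4 (-0.63).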

How the data were processed

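RNA from 13 right hemispheres was sequenced from mRNA libraries. Per the submitters' processing notes and the methods, reads were trimmed with cutadapt 1.5, mapped with STAR to GRCm38 with Ensembl transcripts and counted with RSEM 1.3.0, with SAMtools 1.8 for merging files. The authors deposited 1 table of estimated counts for 48795 genes, neither normalized nor filtered, in which 12.4% to 13.3% of the values of a mouse are not whole. RSEM divides reads that fit several genes. Names, positions and exon lengths came from GENCODE M21 (GRCm38), which covers 48435 of the identifiers.

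The estimated counts were rounded and analysed in R 4.3.3 with edgeR 4.0.16 and DESeq2 1.42.0. Groups followed the sample labels. Genes were kept by filterByExpr (minimum count 10, minimum total 15), scaled by TMM and tested two-sided by the quasi-likelihood method of edgeR on the samples of 2 groups at a time, with Benjamini-Hochberg adjusted p-values. Standard errors are the log2 fold change divided by the root of F. Levels are CPM with TMM over the 13 samples. The scripts were tested on simulated data. Totals of 20871566 to 25524349 counts a mouse overlap between groups, and the lowest count of a member was 23, for Eomes. No pair of replicates, of 23, was as alike as sampling noise allows (lowest chi-square per degree of freedom 6.39).

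Alternatives were DESeq2's size factors, library size alone, no filter, a minimum of 10 counts per sample, all 13 samples in 1 fit, the Wald test of DESeq2, the replicate number as a block, covariates for Y-linked genes, for Ttr and for olfactory bulb markers, mice with Y-linked transcripts only, the 3 mice highest in bulb markers left out, and each mouse left out in turn. The bulb settings and the restriction to mice with Y-linked transcripts were added after the data were seen.

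The 9 genes and the 19 other lists were chosen with earlier results of these data known. Named beside the 9 genes were Yap1, up to 2 called genes with the largest increase and 2 with the largest decrease in each list between nlsYAP5SA and control mice, marker genes whose level a result needed, and the 3 genes most similar in pattern to each called member. Slc1a3, Sox9, Lhx2, Itgb5, Neurod1, Insm1 and Dcx were named after their values were seen. The DESeq2 results of the authors were not used.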

Additional observations from a re-analysis of the deposited data

Results flagged for a closer look

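In the 18 sets of 5 control or 5 nlsYAP5SA mice, 1 for each of the 9 genes and 2 groups, 0 had a mouse whose gap to its nearest neighbour passed Dixon's critical ratio of 0.71.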

How the results depend on the processing

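Between nlsYAP5SA and control mice, Hopx kept its direction and its call under all 22 alternatives, and Pax6 and Prom1 kept their direction under all 22. With the Y-linked covariate 554 genes and 1 member were called. Pax6 was then at 0.45, Prom1 at 0.42, Fabp7 at -0.12 and Eomes at 0.28 (opposite sign). In mice with Y-linked transcripts only, 334 genes and 1 member were called. There Pax6 was at 0.45, Prom1 at 0.39, Fabp7 at -0.08 and Eomes at 0.34 (opposite sign). With the Ttr covariate Prom1 was at 0.58 and not called. With the bulb marker covariate Fabp7 was called at -0.50. Without the 3 mice highest in bulb markers 1955 genes and 5 members were called, with Nes at -0.48, Fabp7 at -0.40 and Eomes at 0.30. Leaving out 1 mouse at a time gave Eomes from -0.39 to 0.13, above 0 without control replicate 1 or 2 or nlsYAP5SA replicate 1 or 5, and Fabp7 from -0.63 to -0.27, called without nlsYAP5SA replicate 4 and in no other fit that left out 1 mouse. Ptprz1 then ran from -0.26 to -0.11.

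In C57BL/6 against control, 0 members were called under any of the 19 alternatives. The number of genes called was 16 with at least 10 counts in every sample, 59 by DESeq2, 44 with all 13 samples in 1 fit and 28 as reported. Uncalled values changed sign: Tnc (0.01 as reported) to -0.0081 (library size alone) and -0.0324 (bulb markers), Hopx (0.14) to -0.0053 and -0.0128 and Ptprz1 (-0.13) to 0.0674 and 0.0731 (Y-linked covariate and Y-linked mice only), Sox2 to 0.0024 (Ttr) and 0.0185 (bulb markers), and Eomes (-0.23) to 0.24 (bulb markers). Leaving out 1 mouse at a time gave Sox2 from -0.0666 to 0.0461, Tnc from -0.11 to 0.0986, Eomes from -0.85 to 0.0819, Pax6 from -0.0574 to 0.0983, Hopx from -0.0128 to 0.23, Ptprz1 from -0.42 to 0.0731, Fabp7 from -0.54 to -0.15, Prom1 from 0.0924 to 0.21 and Nes from 0.0208 to 0.14.

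In nlsYAP5SA against C57BL/6, 1061 genes and 1 member were called as reported. The member, Pax6, was not called (0 members) without a filter, with the Y-linked covariate, with the bulb marker covariate (658 genes) or in mice with Y-linked transcripts only (47 genes), while its log2 fold change stayed at 0.32 to 0.48 over the 19 alternatives, beside 0.40 as reported. Ptprz1 was 0.0203 with the Y-linked covariate, Eomes -0.45 with bulb markers and Fabp7 0.21 in mice with Y-linked transcripts only. Leaving out 1 mouse at a time called 0 to 1 members and 401 genes without C57BL/6 replicate 1, 581 without replicate 2 and 1757 without replicate 3, and 636, 645 and 509 without nlsYAP5SA replicates 1, 2 and 5, and gave Fabp7 from -0.32 to 0.14, Ptprz1 from -0.26 to 0.21, Eomes from -0.21 to 0.73, Hopx from 0.10 to 0.38, Tnc from 0.12 to 0.37, Nes from -0.48 to -0.21 and Sox2 from 0.032 to 0.16.

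Deviations of same-numbered mice had correlations across genes of -0.315 to 0.312, -0.023 to 0.486 and -0.275 to 0.073 in the 3 comparisons. Signs were mixed in each comparison and the labels pair no mice, so the numbers were taken only as names. With the replicate block 1239, 15 and 47 genes were called in the 3 comparisons, with 2, 0 and 0 members. Prom1 was then at 0.67 (adjusted p = 0.056, edgeR) against control, and Pax6 at -0.0585 in C57BL/6 against control. The cause of these shifts was not tested. With 3 C57BL/6 mice and 23 to 90 counts of Eomes a control mouse, small differences are not detectable.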
